A study of Mus musculus with 4 samples.

Results

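The 8 genes described here encode the TAM receptors Axl, Mertk and Tyro3, their ligands Gas6 and Pros1, and 3 further proteins that recognise or take up dying cells, Mfge8, Timd4 and Lrp1. They were chosen by symbol from 19938 genes that a probe set of the array names alone, and each of the 8 had 1 such probe set. All 8 passed the filter on dim genes, which left 14995 genes to test. RNA came from bone marrow cells of C57BL/6J mice cultured for 7 days. Cells of the first group were grown in granulocyte-macrophage colony-stimulating factor (GM-CSF), are called M1 in the labels, and were sorted as CD45+, MHCII+, CD8a- and positive for the Adgre1 gene product from a mixed culture. Cells of the second group were grown in macrophage colony-stimulating factor (M-CSF), given as 20% supernatant of L929 fibroblasts, are called M2, and were sorted as CD45+, CD11b+ and positive for the Adgre1 gene product, a macrophage surface protein. Each group had 2 arrays. Growth factor, the other contents of L929 supernatant and the sort gate changed together and cannot be told apart. Sex was not balanced between the groups either, as given below. No label tells if the 2 replicates of a group came from different cultures or mice. The p-values below hence reflect variation among these 4 arrays, which in the M-CSF pair may be technical. In RNA of a whole sorted population, fewer cells that carry a transcript and less of it per cell cannot be told apart.

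Clearance of dying cells by phagocytes, or efferocytosis, starts from phosphatidylserine, a lipid that apoptotic cells expose on their surface. Gas6 and Pros1 (protein S) are vitamin K-dependent secreted proteins that bind this lipid at one end and a TAM receptor tyrosine kinase at the other. In mouse macrophages Mertk is known as the receptor of resting and steroid-treated cells and Axl as one induced by inflammatory stimuli, and TAM signalling both drives engulfment and restrains cytokine responses. Mfge8 (lactadherin) bridges the same lipid to integrins, Timd4 binds it directly and tethers the dying cell, and Lrp1 is a large endocytic receptor that takes part in engulfment. The comparison of GM-CSF and M-CSF cells asks how these parts of the machinery differ between the cultures.

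The arrays held macrophage transcripts in both groups. Of the 8 macrophage markers listed, 7 had a probe set of their own, and on all 4 arrays these lay above the 95th percentile of olfactory receptor genes, which served as a mark of background (5.81 to 6.07 on the 4 arrays, log2 scale). Cd14 was the marker of these that passed the test, higher in GM-CSF cells by 1.66 (log2). The GM-CSF arrays lay further apart than the M-CSF arrays, with 226 and 7 of 14995 genes at least 2-fold apart within the pair. GM-CSF replicate 1 read 11.58 for Xist, the transcript of the inactive X chromosome, against 4.53 to 4.93 on the other 3 arrays (log2). It read 3.66 for Eif2s3y, a Y-linked gene, against 9.10 to 9.32 on the others. The GM-CSF pair thus came from cells of different sex, GM-CSF replicate 1 carrying the female pattern and the other 3 arrays the male one, and the pair cannot be repeats of 1 sample. Both M-CSF arrays carried the male pattern, so sex was not balanced between the groups. Only the fit without GM-CSF replicate 1 compares arrays of the same sex pattern. The part of sex in the differences between the groups was not tested. Nor was its part in the spread of the GM-CSF pair, and so in the values with 1 GM-CSF array left out. Results for the 8 chosen genes are therefore given with each array left out as well, and those for other genes where stated.

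**Figure D1:**
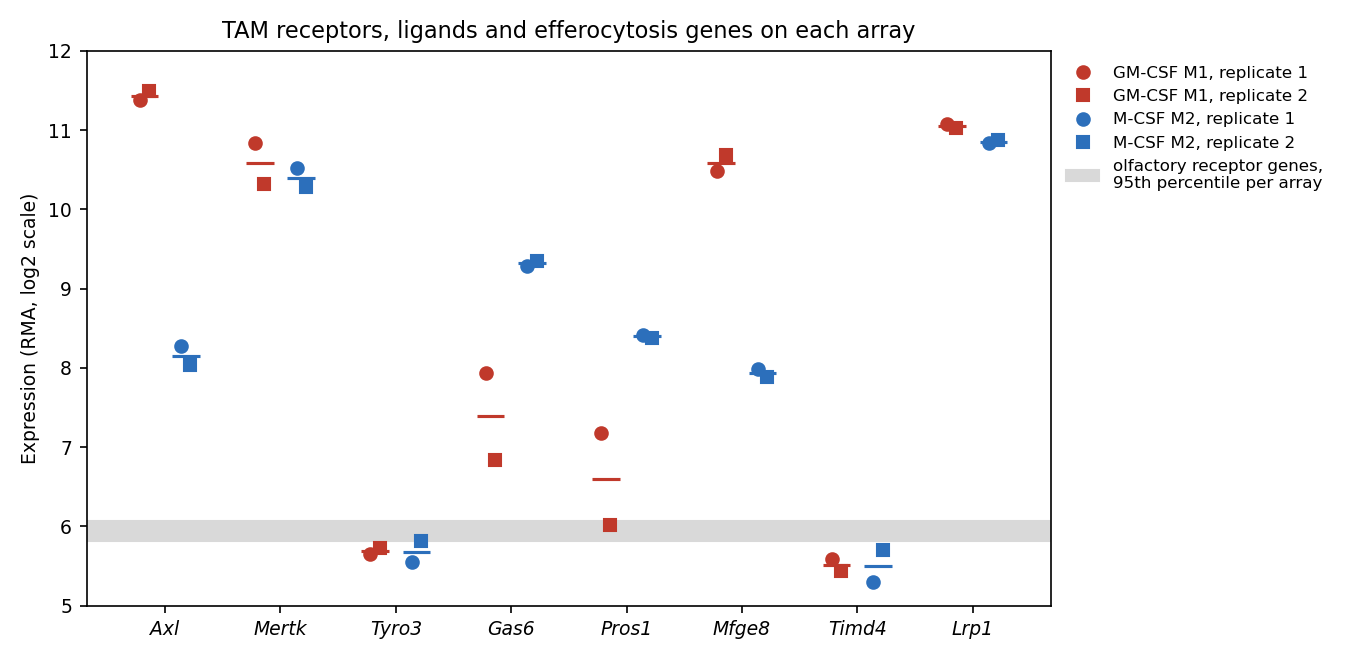
Expression of the 8 genes on each array (RMA values, log2 scale), with GM-CSF M1 arrays in red and M-CSF M2 arrays in blue. Circles are replicate 1, squares replicate 2 and short lines group means (n = 2), and the grey band spans the 95th percentile of olfactory receptor genes on the 4 arrays. Axl and Mfge8 lie higher in GM-CSF cells, Gas6 and Pros1 lower, and Tyro3 and Timd4 sit at background.

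Of the 8 genes, 4 differed between the cultures. Axl and Mfge8 were higher in GM-CSF cells, by 9.72-fold and 6.24-fold, and Gas6 and Pros1 were lower. The other 4, Mertk, Tyro3, Timd4 and Lrp1, did not pass the test (limma, Benjamini-Hochberg adjusted p under 0.05 over all genes tested). Of all genes tested, 10.7% passed in either direction, 6.18% higher and 4.53% lower in GM-CSF cells, against 2 higher and 2 lower of the 8 here. With arrays centred on the medians of the genes tested, the split over all genes was 841 higher and 865 lower, against 926 and 679 otherwise, and the same number of the 8 passed in each direction. The GM-CSF and M-CSF arrays did not overlap for 5 of the 8 genes, the 4 called ones and Lrp1, as was the case for 55.4% of all genes tested. The median difference of the 8 genes was 0.095, against -0.013 over all genes tested (log2, GM-CSF minus M-CSF).

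Among the receptors, Axl had the largest difference of the 8 genes. Axl read 11.38 and 11.49 in GM-CSF cells, against 8.27 and 8.03 in M-CSF cells (log2). Both GM-CSF arrays were high and close together, and the groups did not overlap. The difference was 3.28 ± 0.13 (log2, SE, 2 arrays each, adjusted p from limma 0.000153), which placed Axl 49th from the top of the 14995 genes. With each array left out in turn it stayed between 3.16 and 3.40, or 8.93-fold to 10.6-fold, and passed in each of these 4 fits. Its M-CSF values also lay above the background mark on both arrays.

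Mertk, the receptor most studied in uptake of apoptotic cells by macrophages, read 10.84 and 10.32 in GM-CSF cells, against 10.52 and 10.28 in M-CSF cells. The 4 values interleaved, with the first GM-CSF array highest and the second near the lower M-CSF array. The difference was 0.18 ± 0.19 (log2, SE), with a 95% interval from -0.29 to 0.64 (adjusted p = 0.65 with limma), an interval that does not reach that of Axl (2.97 to 3.59). Its sign turned with the arrays used, at -0.082 when GM-CSF replicate 1 was left out and 0.43 when GM-CSF replicate 2 was, where it passed (adjusted p = 0.0443 with limma) on the spread of the M-CSF pair alone.

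Tyro3, the TAM receptor best known from the nervous system, read 5.65 and 5.73 in GM-CSF cells, against 5.55 and 5.81 in M-CSF cells. All 4 values lay below the background mark of their array, so these data neither measure a level of Tyro3 nor show a change in it. The fitted difference was 0.0063 ± 0.13 (log2, SE), and its sign turned with centring on the medians of the genes tested (-0.037).

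The ligands moved the other way from Axl. Gas6, which binds all TAM receptors, read 7.94 and 6.84 in GM-CSF cells, against 9.29 and 9.35 in M-CSF cells. The M-CSF arrays lay close together and above both GM-CSF arrays, which were themselves 1.1 apart. The difference was -1.93 ± 0.33 (log2, SE, adjusted p = 0.0172 with limma), so that Gas6 was 3.82-fold lower in GM-CSF cells. Its size depended on the GM-CSF array, at -2.49 when replicate 1 was left out and -1.38 when replicate 2 was, or 5.60-fold and 2.61-fold lower. The call was lost without M-CSF replicate 1 or 2 (adjusted p of 0.192 and 0.197 from limma). It was also lost when variances were trended and robust (0.093).

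Pros1, a ligand of Tyro3 and Mertk and better known as an anticoagulant plasma protein, followed the same array pattern. Pros1 read 7.18 and 6.02 in GM-CSF cells, against 8.42 and 8.38 in M-CSF cells. The second GM-CSF array was the lowest, close to the background mark of 5.90 on that array, and the GM-CSF pair was 1.16 apart. The difference was -1.80 ± 0.35 (log2, SE, adjusted p = 0.0253 with limma), or 3.49-fold lower in GM-CSF cells. It was -2.38 when GM-CSF replicate 1 was left out and -1.22 when replicate 2 was, or 5.22-fold and 2.34-fold lower. As with Gas6, the call was lost without M-CSF replicate 1 or 2 (adjusted p of 0.236 and 0.224 from limma) and when variances were trended and robust (0.114). Gas6 and Pros1 were the 2 of the 8 genes at least 2-fold apart within the GM-CSF pair, both higher on GM-CSF replicate 1, and 0 of the 8 were that far apart within the M-CSF pair. Of the 14995 genes, Gas6 ranked 52nd and Pros1 61st from the lowest difference.

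Mfge8, the bridge to integrins, was higher in GM-CSF cells. Mfge8 read 10.48 and 10.68 in GM-CSF cells, against 7.99 and 7.89 in M-CSF cells. The groups were well apart and each pair close together. The difference was 2.64 ± 0.12 (log2, SE, adjusted p = 0.000199 with limma), the 91st from the top of all genes tested. Leaving out an array in turn gave 2.54 to 2.75, or 5.80-fold to 6.71-fold, and it passed in each of the 4 fits.

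Lrp1, the endocytic receptor, read 11.08 and 11.03 in GM-CSF cells, against 10.84 and 10.87 in M-CSF cells. The GM-CSF arrays were both slightly higher, yet the difference of 0.20 ± 0.10 (log2, SE) did not pass (95% interval -0.050 to 0.45, adjusted p = 0.296 with limma). The upper end of that interval lies far below the differences of Axl and Mfge8. Timd4, a phosphatidylserine receptor typical of resident tissue macrophages, read 5.59 and 5.44 in GM-CSF cells, against 5.30 and 5.70 in M-CSF cells. All 4 values were below the background mark, so Timd4 was not detectable above background in either culture. Its fitted difference of 0.013 ± 0.16 (log2, SE) turned sign with centring on the medians of the genes tested (-0.030).

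**Figure D2:**
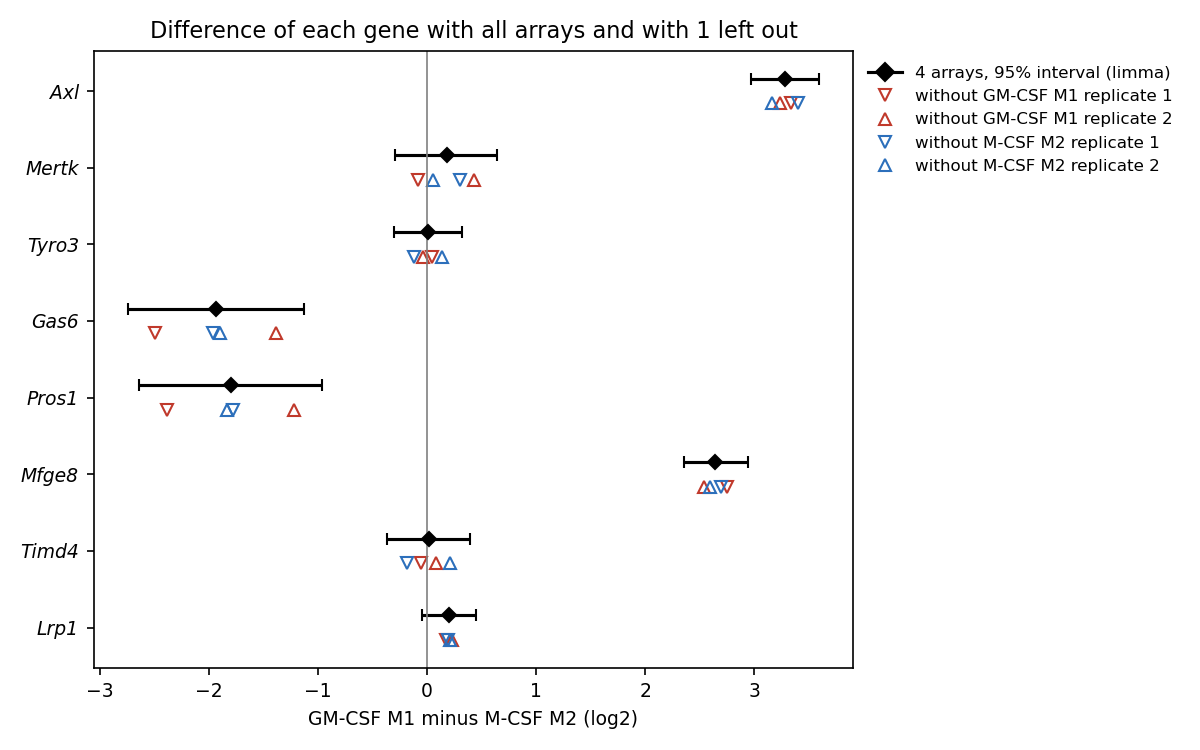
Difference of each gene between GM-CSF M1 and M-CSF M2 cells (log2, horizontal axis), with all 4 arrays (black diamonds, bars are 95% intervals from limma) and with 1 array left out (open triangles). The triangles of Axl and Mfge8 stay close to the diamond, those of Gas6 and Pros1 spread to -2.49 and -2.38 when GM-CSF replicate 1 is left out and to -1.38 and -1.22 when replicate 2 is, and those of Mertk, Tyro3 and Timd4 fall on both sides of 0.

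The promoters of the 4 genes that differed are shown because Axl and Mfge8 moved one way and Gas6 and Pros1 the other. Each window runs 5′ to 3′ on the gene's own strand from 250 bases before to 50 bases after the start in RefSeq (GRCm38.p6), and all 8 genes had one. Capitals mark matches on either strand to the motifs searched, GAGGAA (core of PU.1 sites), the interferon response element (the letters GAAA, any 2 bases, and GAAA again), TTCNNNGAA (STAT) and TGCTGA (core of Maf sites). The activity of the factors that bind them was not measured. In these windows no match overlapped one of another motif.
Axl, minus strand, chr7:25788684-25788983: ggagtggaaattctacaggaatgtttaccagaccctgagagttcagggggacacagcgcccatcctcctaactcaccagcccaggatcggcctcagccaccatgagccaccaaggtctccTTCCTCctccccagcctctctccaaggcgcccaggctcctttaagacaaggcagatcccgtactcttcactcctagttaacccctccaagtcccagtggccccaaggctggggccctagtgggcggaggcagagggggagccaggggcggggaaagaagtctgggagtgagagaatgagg
Mfge8, minus strand, chr7:79149011-79149310: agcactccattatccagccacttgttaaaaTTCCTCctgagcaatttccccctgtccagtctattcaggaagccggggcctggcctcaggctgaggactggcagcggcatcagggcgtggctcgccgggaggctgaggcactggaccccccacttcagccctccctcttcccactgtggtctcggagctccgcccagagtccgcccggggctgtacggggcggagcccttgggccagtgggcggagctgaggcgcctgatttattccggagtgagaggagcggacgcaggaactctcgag
Gas6, minus strand, chr8:13494486-13494785: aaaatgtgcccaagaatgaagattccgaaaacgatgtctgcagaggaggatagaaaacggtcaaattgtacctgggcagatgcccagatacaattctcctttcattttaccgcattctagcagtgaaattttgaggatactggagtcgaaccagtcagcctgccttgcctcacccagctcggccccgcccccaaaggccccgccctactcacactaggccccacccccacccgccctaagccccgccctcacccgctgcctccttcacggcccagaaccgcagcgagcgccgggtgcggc
Pros1, plus strand, chr16:62854057-62854356: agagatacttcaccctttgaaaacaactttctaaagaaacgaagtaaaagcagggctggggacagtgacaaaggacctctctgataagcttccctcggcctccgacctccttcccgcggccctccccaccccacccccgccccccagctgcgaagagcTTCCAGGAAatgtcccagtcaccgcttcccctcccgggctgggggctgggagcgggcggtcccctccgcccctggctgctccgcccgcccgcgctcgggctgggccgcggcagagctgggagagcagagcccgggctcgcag
Axl and Mfge8 each held GAGGAA once, on the reverse strand, with the first letter of the match at -130 and -220 from the start, and the other 6 promoters did not hold it. Over all 32851 promoter windows 28.3% held that motif. TTCNNNGAA lay in the windows of Pros1 (from -92) and Lrp1 (from -232) and in 8.30% of all windows. TGCTGA was in the Timd4 window alone of the 8 and in 19.5% of all windows, and the interferon response element in 0 of the 8 and 3.44% of all. The Axl window held 6 CpG, fewer than Mfge8 (17), Gas6 (17) and Pros1 (21), against a median of 7 over all windows. These matches are letters in a window and show no binding.

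The genes whose profile over the 4 arrays lay nearest to that of Axl were Tarm1, a myeloid receptor gene, Aldoc, an aldolase, and Smpdl3b, a phosphodiesterase gene, at Euclidean distances of 0.0894, 0.101 and 0.127 between mean-centred log2 profiles. They were higher in GM-CSF cells by 3.37, 3.37 and 3.17 (log2). Nearest to Mfge8 were Apbb2, an adaptor gene, Sgk1, a serum-induced kinase, and Il1b, an interleukin-1 cytokine, at 0.0951, 0.181 and 0.183, with differences of 2.68, 2.56 and 2.73. Apbb2 was within background in M-CSF cells, so that only a bound of at least 5.50-fold can be read for it. With 4 arrays in 2 groups, such a distance mainly reflects the size of the difference between groups.

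Around the 8 genes, 131 others of the clearance machinery were listed in 10 groups, with earlier results of these data known. The shares of the lists are hence descriptive and no test of them. Of the 131 genes, 122 were tested. Of these, 30 were higher and 6 lower in GM-CSF cells (29.5% in either direction, against 10.7% of all genes tested) and 86 did not pass, with a median difference of 0.14 (log2) against -0.013 over all genes tested. All 36 remained in each fit without a GM-CSF array, whose spread is that of the M-CSF pair, 7 without M-CSF replicate 1 and 3 without M-CSF replicate 2, and 2, Cd300lf and Elmo1, remained in all 13 other settings. The differences themselves moved by a median of 0.053 and at most 0.34 (log2) without an M-CSF array, when the wider GM-CSF pair gives the spread, and by a median of 0.097 and at most 0.81 without a GM-CSF array. Of the 36, Edil3 lay below the background mark on all 4 arrays, Nqo1 on both M-CSF arrays and Vldlr on both GM-CSF arrays. Edil3 and Vldlr were named after their values were seen. Apart from Cd300lf and Elmo1, every call among the 36 was lost in some setting, also where this is not repeated below.

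Other receptors for phosphatidylserine gave 3 genes higher and 0 lower of 15 tested (20.0% called, against 10.7% of all genes tested). Cd300lf, which binds the lipid directly, read 10.11 and 9.83 in GM-CSF cells, against 7.85 and 7.66 in M-CSF cells, and was 4.65-fold higher (2.22 ± 0.14 on the log2 scale, limma adjusted p = 0.000527). Trem2, a lipid receptor of macrophages and microglia, was 1.91-fold higher, and Itgb5, the beta chain of an integrin that Mfge8 binds, 1.38-fold. The call of Itgb5 was lost with no filter (adjusted p = 0.058 with limma) and with the replicate block (0.0572). It was also lost without M-CSF replicate 1 or 2, where the difference was 0.51 and 0.43 (log2). The alpha chain Itgav (-0.099 ± 0.11) and the alternative beta chain Itgb3 (0.35 ± 0.19) did not pass. Scarf1, a scavenger receptor that binds C1q on dying cells, differed by 0.69 ± 0.22 without passing. Its difference was 1.04 with GM-CSF replicate 1 left out and 0.34 with GM-CSF replicate 2 left out (log2). Itgb5, Itgav and Itgb3 were chosen after their values were seen. Of the TIM family other than Timd4, only Havcr2 (Tim-3) passed the filter, with 8.14 and 7.04 in GM-CSF cells, against 7.57 and 7.35 in M-CSF cells. The M-CSF values of Havcr2 lay between the GM-CSF values, and the difference of 0.13 ± 0.33 did not pass.

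Bridging molecules and opsonins gave 5 genes higher and 1 lower of 14 (42.9% called, against 10.7% of all genes tested). Anxa1, a phospholipid-binding annexin, read 10.73 and 10.34 in GM-CSF cells, against 8.70 and 8.29 in M-CSF cells, and was 4.10-fold higher (2.04 ± 0.19). Thbs1, thrombospondin 1, which links dying cells to Cd36, was 2.29-fold higher and Ptx3, a pentraxin, 2.26-fold. The M-CSF values of Ptx3, 5.80 and 6.10, lay next to the background marks of those arrays (5.81 and 6.07). The C1q chains, named after their values were seen, lay lower in GM-CSF cells without overlap. The arrays of the groups did not overlap for 55.4% of all genes tested either. C1qc read 10.38 and 11.16 in GM-CSF cells, against 11.87 and 11.90 in M-CSF cells, and was 2.17-fold lower (-1.11 ± 0.24, adjusted p = 0.0389 with limma), from -0.72 with GM-CSF replicate 1 left out to -1.51 with replicate 2 left out. Its call was lost with quantile normalization (limma adjusted p = 0.0539), with trended and robust variances (0.0966) and without M-CSF replicate 1 or 2 (0.278 and 0.274). C1qa (-1.11 ± 0.35, adjusted p = 0.105) and C1qb (-0.62 ± 0.17, adjusted p = 0.0696) did not pass with limma. Both passed with the replicate block (0.0219 and 0.0463), and in some other settings, C1qb with array weights among them (0.049). The C1q chains were lower on GM-CSF replicate 1 than on GM-CSF replicate 2, the opposite of Gas6 and Pros1.

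**Figure D3:**
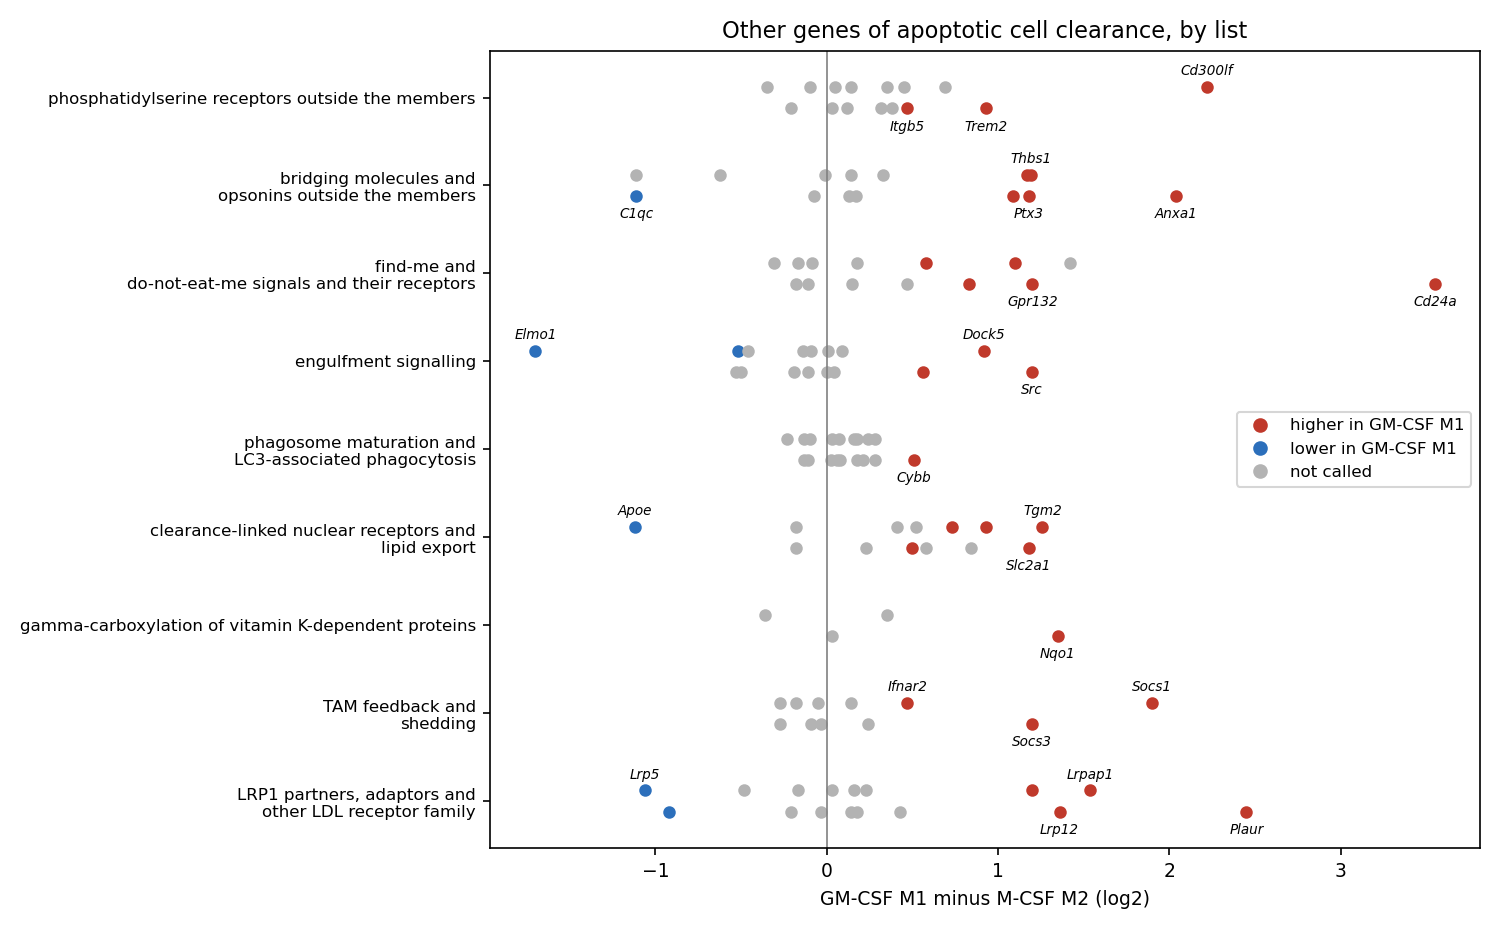
Difference between GM-CSF M1 and M-CSF M2 cells (log2, horizontal axis) of each tested gene in the 9 lists with more than 1 tested gene. Red points were higher in GM-CSF M1 cells, blue points lower and grey points not called (limma, adjusted p under 0.05), and vertical offsets within a list only separate points. Cd24a, Plaur and Cd300lf lie furthest to the right and Elmo1 furthest to the left.

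Signals that draw or repel phagocytes gave 5 genes higher and 0 lower of 14 (35.7% called, against 10.7% of all genes tested). Cd24a, a don't-eat-me surface glycoprotein, read 10.98 and 9.46 in GM-CSF cells, against 6.81 and 6.53 in M-CSF cells, and was 11.7-fold higher (3.55 ± 0.45). Its difference was 2.79 when GM-CSF replicate 1 was left out and 4.32 when replicate 2 was. The call was lost with trended and robust variances (limma adjusted p = 0.0992) and without M-CSF replicate 1 or 2 (0.106 and 0.126). Gpr132, a receptor linked to lysophosphatidylcholine from dying cells, was 2.30-fold higher. Cx3cr1, the receptor of the find-me signal fractalkine, read 6.94 and 9.77 in GM-CSF cells, against 6.94 and 6.92 in M-CSF cells. Only the second GM-CSF array was high for Cx3cr1, and the difference of 1.42 ± 0.81 did not pass. The difference was 2.84 with GM-CSF replicate 1 left out and 0.0078 with GM-CSF replicate 2 left out (log2).

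Genes of engulfment signalling gave 3 higher and 2 lower of 16 (31.2% called, against 10.7% of all genes tested). Elmo1, which with Dock proteins activates Rac downstream of engulfment receptors, read 8.65 and 8.93 in GM-CSF cells, against 10.49 on both M-CSF arrays, and was 3.25-fold lower (-1.70 ± 0.13, adjusted p = 0.000919 with limma). Src, a tyrosine kinase, was 2.30-fold higher and Dock5, a Rac exchange factor, 1.89-fold higher. Phagosome maturation gave 1 gene higher and 0 lower of 18, or 5.56% called, below the 10.7% of all genes tested. That gene was Cybb, the NADPH oxidase subunit used in LC3-associated phagocytosis (0.51 ± 0.11), and among the others Mon1a (0.28 ± 0.12) and Atg5 (0.28 ± 0.11) had the largest differences.

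Nuclear receptors and lipid handling after uptake gave 5 genes higher and 1 lower of 13 (46.2% called, against 10.7% of all genes tested). Tgm2, a transglutaminase that assists engulfment, was 2.40-fold higher and Slc2a1, a glucose transporter, 2.26-fold. Apoe, a lipid-exporting apolipoprotein, averaged 11.85 ± 0.21 in GM-CSF cells and 12.97 ± 0.023 in M-CSF cells (SD, n = 2 each) and was 2.17-fold lower (-1.12 ± 0.13). Of 4 genes tied to gamma-carboxylation, which activates Gas6 and Pros1, the carboxylase Ggcx (0.35 ± 0.12) and the vitamin K reductase Vkorc1 (-0.36 ± 0.11) did not pass. Nqo1, a quinone reductase that can also act on vitamin K, read 6.73 and 6.28 in GM-CSF cells, against 5.19 and 5.12 in M-CSF cells, and was at least 1.48-fold higher (limma adjusted p = 0.00515), a bound taken against the background marks of the M-CSF arrays because both M-CSF values lay below them. That list gave 1 higher and 0 lower of 4 (25.0% called, against 10.7% of all genes tested).

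Genes of TAM feedback and receptor shedding gave 3 higher and 0 lower of 11 (27.3% called, against 10.7% of all genes tested). Socs1 and Socs3, cytokine signalling inhibitors that TAM signalling can induce, were 3.74-fold and 2.30-fold higher in GM-CSF cells. Socs3 had 2 probe sets, and its difference was 1.20 with the brighter of them but 0.88 with their mean (log2). Ifnar2, the interferon receptor chain, was 1.38-fold higher (limma adjusted p = 0.042), a call lost with no filter (0.0619), with centring on the medians of the genes tested (0.0555), with the replicate block (0.0592) and without M-CSF replicate 1 or 2 (0.278 and 0.27). The Lrp1-related list gave 4 higher and 2 lower of 16 (37.5% called, against 10.7% of all genes tested). Lrpap1, the chaperone that keeps Lrp1 from binding ligands early in its synthesis, read 12.03 and 11.70 in GM-CSF cells, against 10.35 and 10.29 in M-CSF cells, and was 2.91-fold higher (1.54 ± 0.14). Plaur, the urokinase receptor, which Lrp1 internalises, read 10.88 and 9.26 in GM-CSF cells, against 7.70 and 7.53 in M-CSF cells, and was 5.48-fold higher (2.45 ± 0.48), or 1.64 with GM-CSF replicate 1 left out and 3.27 with replicate 2 left out (log2). Its call was lost with trended and robust variances (limma adjusted p = 0.197) and without M-CSF replicate 1 or 2 (0.225 and 0.245). Lrp12, another LDL receptor family gene, was 2.57-fold higher.

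Some markers of cells other than macrophages differed between the groups too, and their part in these results was not tested. Of all genes tested, 10.7% passed in either direction. The 1 call among 7 fibroblast and stromal markers and the 1 among 8 neutrophil markers lie near that share. Lists with 2 tested genes are too short to compare with it. Of 9 dendritic cell markers, 3 were higher and 0 lower in GM-CSF cells, with summed linear levels of 1747 to 2475 in GM-CSF cells and 542 to 566 in M-CSF cells, and 3 of the 9 were at or below the background mark on all 4 arrays, among them Flt3 and Xcr1. Those higher were Itgax (23.0-fold, with M-CSF values of 6.01 and 5.71, next to the background mark), Clec9a (at least 2.76-fold, with both M-CSF values below it) and Ccr7 (2.24-fold). These marker genes, the endothelial, B cell and megakaryocyte markers named below, Xist and Eif2s3y were named after their values were seen. Of 7 tested fibroblast and stromal markers 1 was higher and 0 lower, with sums of 667 to 777 in GM-CSF cells and 613 to 646 in M-CSF cells. Endothelial markers gave 2 higher and 0 lower of 4 (514 to 837 in GM-CSF cells and 264 to 275 in M-CSF cells). Of the higher ones, Kdr lay below the background mark on both M-CSF arrays, so only a bound of at least 2.21-fold can be read for it. Megakaryocyte and platelet markers gave 2 higher and 1 lower of 4 (4090 to 9700 in GM-CSF cells and 1098 to 1435 in M-CSF cells). The higher ones of that list were Ppbp and Pf4, which made up most of its sums. In GM-CSF cells Ppbp read 12.28 and 10.87 and Pf4 12.16 and 11.01, so each pair was more than 2-fold apart. Both calls were lost with trended and robust variances (limma adjusted p = 0.106 and 0.146). Gp9 was lower, and Itga2b did not pass (0.30 ± 0.12). Of 8 tested neutrophil markers, 0 were higher and 1 lower, with sums of 623 to 1378 in GM-CSF cells and 738 to 853 in M-CSF cells. B cell markers gave 0 higher and 1 lower of 2 tested, with sums of 310 to 360 in GM-CSF cells and 1265 to 1310 in M-CSF cells. The lower one was Cd79b, 5.14-fold lower in GM-CSF cells. Cd79b read 10.16 and 10.21 in M-CSF cells (log2) and made up most of the M-CSF sums. Cd79a and Ms4a1 lay below the background mark on all 4 arrays, and Pax5, next to that mark, did not pass (-0.052 ± 0.11). T and NK cell markers gave 0 of 2, erythroid markers 0 of 2, and 0 mast cell markers passed the filter.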

How the data were processed

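From each sample 300 ng of total RNA was random-primed, biotin-labelled and run on a 1-colour Affymetrix array, per the labels' protocols. The authors deposited a log2 value for every probe set, computed, per the submitters' processing notes, with RMA in Affymetrix Expression Console 1.1. By its definition RMA removes background and equalises the distributions of arrays, so dim genes show smaller differences and shifts in RNA content of the cells are not seen. The genome build and scan batches are not given in the sources used here, and batches were not tested.

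Of 35556 probe sets, 21789 had 1 gene symbol in the platform annotation, 1621 several and 12146 none, and 21698 matched RefSeq by gene ID. A gene with several probe sets was represented by that with the highest mean. Genes entered when at least 2 of 4 arrays exceeded that array's 30th percentile. Differences (GM-CSF minus M-CSF) were fitted in R 4.3.3 by limma 3.58.1 (lmFit, then two-sided eBayes with 4.17 prior beside 2 residual degrees of freedom), and p-values were adjusted by Benjamini-Hochberg over all genes at 0.05, and the fit was tested on simulated data. Precision is limited by the number of arrays. The members, lists, background mark (1015 olfactory receptor genes) and tests were chosen with earlier results of these data known. Named genes are the members, in each list the 3 tested genes furthest from 0, the 12 largest called differences over the lists, the 3 genes nearest in profile to the 2 members with the largest difference, and the macrophage markers. Others are marked as picked after seeing their values. Tables and plots were made with pandas 2.3.3 and matplotlib 3.10.9 in Python 3.11.15.

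The other settings were no filter, a 50th percentile filter, quantile normalization, centring on array medians, probe set means, trended and robust variances, array weights per group, a replicate block, leaving out each array, and, added after seeing the data, centring on the medians of the genes tested. Where a group kept 1 array, it was taken to have the spread of the other group.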

Additional observations from a re-analysis of the deposited data

How the results depend on the processing

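Axl and Mfge8 kept their direction and passed in all 13 other settings. Gas6 and Pros1 kept their direction in all 13 and passed in 10, losing the call with trended and robust variances (-1.93 and -1.80, adjusted p = 0.093 and 0.114 with limma) and without either M-CSF array, when the spread comes from the wider GM-CSF pair. With 1 array left out, the log2 difference ran from -2.49 to -1.38 for Gas6, -2.38 to -1.22 for Pros1, -0.082 to 0.43 for Mertk, -0.12 to 0.14 for Tyro3 and -0.18 to 0.21 for Timd4. Centring on the medians of the genes tested turned Tyro3 (-0.037) and Timd4 (-0.030). Of the 8 genes, 0 were lower with trended and robust variances and 0 to 2 with an array left out. Over all genes, leaving out an array gave 168 to 1683 higher and 65 to 1522 lower, and over the 122 pathway genes 2 to 40 higher and 1 to 15 lower. Tyro3 and Timd4 had no value under the 50th percentile filter.

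Of 49 other genes recomputed, 10 kept their call in every setting run, 30 lost it in at least 1, 9 gained one and 1 turned direction, Havcr2 (from -0.42 to 0.68 with an array left out). The replicate numbers were not taken as pairs because no label says that they mark a shared animal, culture or day. Same-numbered arrays did not deviate together (correlation of their deviations from the group means 0.065 across genes). The arrays of replicate 1 also differed in sex pattern. With the replicate block, 966 genes were higher and 674 lower, and the calls of the 8 genes did not change (Gas6 adjusted p = 0.0107 with limma, Pros1 0.0117). Dim genes such as Tyro3 and Timd4 are limited by signal over background.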
